A study of Mus musculus with 11 samples.

Results

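Adipocytes keep triglyceride in a single large droplet and release it on demand. The 10 genes described here were chosen by name for their part in that cycle, with earlier results of these data known. All 10 were found and tested among 22203 genes with a value, of which 12756 were tested. Plin1, Plin4 and Cidec encode proteins of the droplet surface, Lipe, Pnpla2 and Mgll encode lipases, Abhd5 and G0s2 encode an activator and an inhibitor of a lipase, Adrb3 encodes a receptor that starts lipolysis, and Aqp7 encodes a channel through which glycerol leaves the cell. They were measured by RNA sequencing of inguinal mammary glands from 11 mice. The 6 Knockout libraries came from mice of genotype Tsc1-fl/fl; Adipoq-Cre-Tg/+ and the 5 Wild-Type libraries from Tsc1-fl/fl; Adipoq-Cre-+/+ mice, so that both groups carried the floxed Tsc1 alleles and differed in the Cre transgene. Cre was driven by the Adipoq promoter, which is active in adipocytes, whereas the samples were whole glands. Per the labels, the glands were taken 16 days after delivery (PND16.5) from animals fed Normal Chow Diet.

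As background, triglyceride in the droplet is cut in steps. Adipose triglyceride lipase, the product of Pnpla2, removes the first fatty acid, hormone-sensitive lipase, the product of Lipe, the next, and monoglyceride lipase, the product of Mgll, the last. Perilipin 1 holds ABHD5, the activator of Pnpla2, at the droplet surface until beta-adrenergic signalling through cyclic AMP and protein kinase A releases it. Tsc1 encodes a subunit of the complex that restrains the kinase mTORC1, and mTORC1 has been linked to both fat storage and the control of lipolysis. In lactation the mammary fat pad is filled by secretory epithelium, and its adipocytes hold little lipid.

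The libraries held between 25799553 and 37873464 estimated reads. Values per gene are given as CPM, estimated reads scaled to a common library total with TMM factors, and levels between genes as TPM, which is also divided by transcript length. Summed over 10 marker genes of milk-secreting epithelium, the Wild-Type libraries held between 426144 and 598374 CPM and the Knockout libraries between 344594 and 482132 CPM. The 12 adipocyte markers together reached between 730 and 1095 CPM in the Wild-Type libraries and between 1127 and 1875 CPM in the Knockout libraries, which did not overlap, and each of the 12 had at least 2 reads in every library. Cfd, the most abundant of them, weighs most in this sum. Of the 11 markers tested singly, 1 had every Knockout library above every Wild-Type library, against 0.784% of all genes. Tsc1 itself, summed over all cells of the gland, was at 10.7 ± 1.10 CPM (SD, n = 5) without Cre and 10.1 ± 1.33 CPM (SD, n = 6) with it, for a log2 ratio of -0.09 ± 0.11 (SE; adjusted p 0.772 in edgeR). The labels do not say whether the libraries come from separate litters, and p-values measure the spread between these mice. In a bulk sample, a change in the number of adipocytes and a change in RNA per adipocyte cannot be told apart.

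Plin4 rose in the Knockout glands and was the 1 gene of the 10 to pass the test. Of all 12756 genes tested, edgeR's quasi-likelihood test called 0.0627% at an adjusted p under 0.05, and 0.0549% as higher in Knockout. Before adjustment, 4 of the 10 (Plin4, Cidec, Adrb3 and Abhd5) had a p under 0.05 and all 4 were higher in Knockout, against 6.33% of all genes that were higher with such a p. The fold change was above 0 for 9 of the 10, against 48.3% of all genes, and its median was 0.28 on the log2 scale, against -0.0075 over all genes. Pnpla2 was the exception in direction. The 10 genes were chosen with earlier results of these data known, so these counts are not an independent test. Markers of other cell types differed by list, with no single marker past the edgeR adjusted threshold. Some lists had small medians: 0.02 for endothelium, -0.09 for blood, -0.12 for macrophages and -0.10 for milk-secreting epithelium. Of these, 1 macrophage marker was lower and 1 epithelial marker higher at an unadjusted p under 0.05. All 5 fibroblast markers had a fold change above 0, with a median of 0.35 and 2 with an unadjusted p under 0.05, and summed to 121 to 224 CPM in Wild-Type and 136 to 314 CPM in Knockout libraries. All 6 myoepithelial markers did so too, with a median of 0.29 and 2 with an unadjusted p under 0.05, and summed to 195 to 367 CPM and 250 to 394 CPM. The 5 lymphocyte and lymph node markers tested were all below 0, with a median of -2.62 and 4 with an unadjusted p under 0.05, and all 6 summed to 1.68 to 78.2 CPM and 1.25 to 14.1 CPM. All 7 skeletal muscle markers were above 0, with a median of 2.21 and none with an unadjusted p under 0.05. Their sum had a median of 25.3 CPM in Wild-Type and 26.9 CPM in Knockout libraries. It ranged from 1.47 to 229 CPM and from 2.49 to 2511 CPM, with the highest value in Knockout 1. The part of these cell types in the values of the 10 genes was not tested. Every Knockout library was above every Wild-Type library for Plin4 alone of the 10, against 0.784% of all genes.

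**Figure D1:**
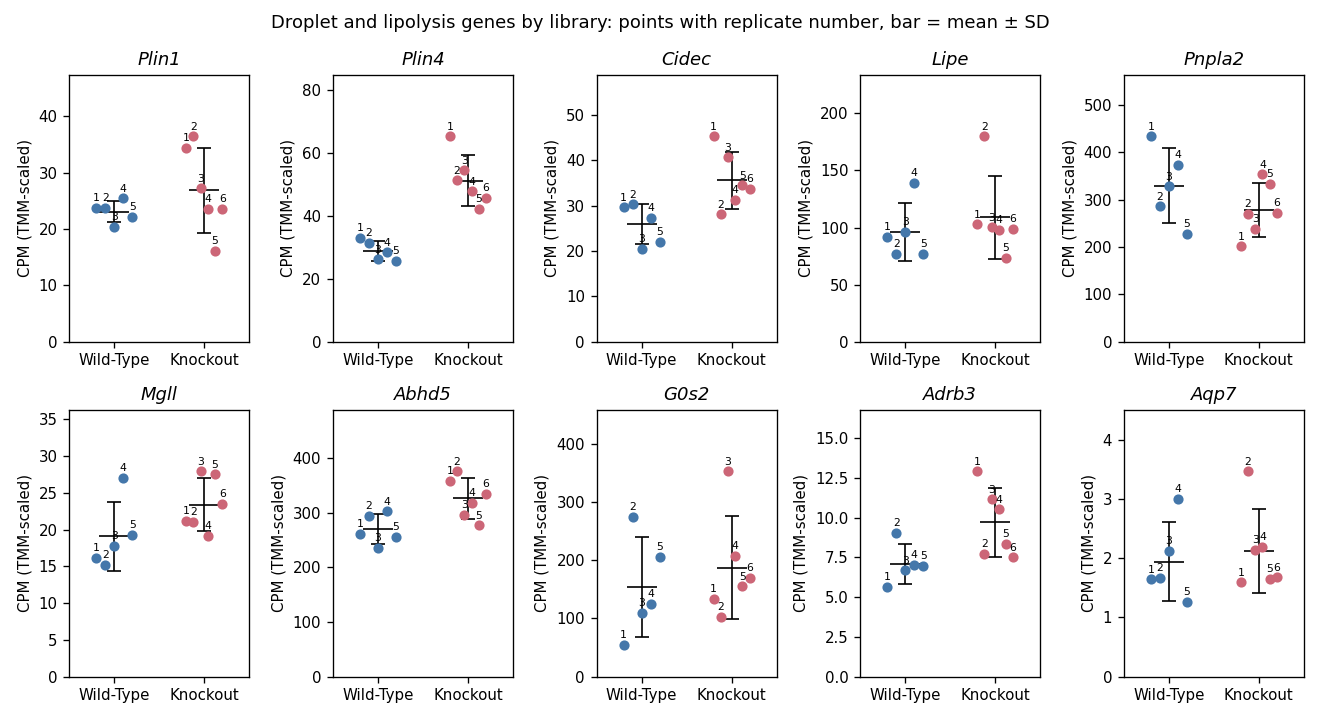
CPM after TMM scaling (vertical axes, from 0) of the 10 genes in the 5 Wild-Type (blue) and 6 Knockout (red) libraries, each point marked with its replicate number and each bar the mean ± SD. The Plin4 points of the 2 groups do not overlap, whereas those of the other 9 genes do.

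Of the droplet coat proteins, Plin4 encodes perilipin 4, a long amphipathic protein that covers small nascent droplets in adipocytes. The gene (ENSMUSG00000002831) lies on chromosome 17 from 56100591 to 56109803 of GRCm38, on the minus strand. Its level was 32.9, 31.3, 26.2, 28.3 and 25.7 CPM in Wild-Type libraries 1 to 5 and 65.1, 51.2, 54.4, 47.7, 42.2 and 45.7 CPM in Knockout libraries 1 to 6. The lowest Knockout library was thus above the highest Wild-Type library, and Knockout 1 was the highest of all. Wild-Type glands averaged 28.9 ± 3.15 CPM (SD, n = 5) and Knockout glands 51.0 ± 8.11 CPM (SD, n = 6), which is 1.77-fold higher. The log2 fold change was 0.82 ± 0.11 (SE; 95% interval 0.58 to 1.07) with a p of 7.3e-06 and an edgeR adjusted p of 0.0132, and Plin4 had the rank 5 among all genes by p. DESeq2 called it too, at an adjusted p of 1.4e-08, and none of the other 9, where it called 1.15% of all genes, 0.691% as higher in Knockout. The adjusted p in edgeR was 0.0513 without Knockout 3 and 0.0636 without Wild-Type 3, with log2 fold changes of 0.80 and 0.79, and the all-gene count of calls fell from 8 to 0 and 2 in those fits. Without Knockout 1, the library with the most skeletal muscle RNA (2511 CPM over 7 markers, against 1.47 to 229 CPM in the other 10), the log2 fold change was 0.75 with an adjusted p of 0.0253. With TMM factors computed without the milk protein genes it was 0.83, with an adjusted p of 0.0117. Scaled to adipocyte markers, as set out below, Plin4 was not called by edgeR. Its log2 fold change was 0.22 with summed marker reads (adjusted p 0.241) and 0.63 with markers weighted equally (adjusted p 0.0793).

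The promoter of Plin4 is shown because it is the gene that passed the test. For Lipe and Mgll the window shown is the one that holds the sequence CACGTG, in capitals, an E-box to which factors such as MITF and TFEB bind. Each window is the 250 bases before a RefSeq start site on GRCm38.p6, 5′ to 3′ on the strand of the gene.
Plin4, chr17:56109783-56110032, minus strand: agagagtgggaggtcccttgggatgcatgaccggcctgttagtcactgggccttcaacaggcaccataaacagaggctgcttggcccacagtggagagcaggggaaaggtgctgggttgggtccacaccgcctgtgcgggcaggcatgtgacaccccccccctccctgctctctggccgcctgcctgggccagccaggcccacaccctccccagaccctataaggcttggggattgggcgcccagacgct
Lipe, chr7:25395988-25396237, minus strand: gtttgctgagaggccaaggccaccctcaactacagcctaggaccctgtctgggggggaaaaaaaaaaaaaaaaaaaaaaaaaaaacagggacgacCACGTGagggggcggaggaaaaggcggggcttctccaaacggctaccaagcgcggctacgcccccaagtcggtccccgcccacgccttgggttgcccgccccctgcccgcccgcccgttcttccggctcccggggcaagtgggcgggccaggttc
Mgll, chr6:88724162-88724411, plus strand: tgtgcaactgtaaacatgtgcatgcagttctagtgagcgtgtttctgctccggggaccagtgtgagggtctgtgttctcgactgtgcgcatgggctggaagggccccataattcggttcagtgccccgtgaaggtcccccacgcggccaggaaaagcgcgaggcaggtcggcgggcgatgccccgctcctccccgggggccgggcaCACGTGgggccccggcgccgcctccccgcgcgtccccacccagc
RefSeq windows matched 9 of the 10 genes, in 13 windows; Adrb3 had none. Each was searched on both strands for 5 motifs: CACGTG, the nuclear receptor half-site AGGTCA, the cyclic AMP response element TGACGTCA, the C/EBP palindrome TTGCGCAA and the TATA box TATAAA. No motif contains another. CACGTG was present in 2 of the 13, starting 44 bases before a start of Mgll and 155 bases before a start of Lipe, and in 6.02% of all 32851 windows of that length. Mgll and Lipe each had another window, at a different start, without it. The half-site was in 3 of the 13, in Abhd5 and in both overlapping windows of Aqp7, against 14.0% of all. The other 3 motifs were in none of the 13, against 1.55% of all windows for the cyclic AMP response element, 0.164% for the C/EBP palindrome and 12.4% for the TATA box. The Plin4 window held none of the 5 motifs, which says only that these letters are not there.

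Most Plin4 reads fell on 1 transcript. A transcript of 4806 bases that the GENCODE M21 annotation does not list carried between 702 and 2714 reads a library and 89.3% to 97.0% of the reads of the gene, and the annotated Plin4-202, of 4212 bases, carried the rest (27.9 to 224 reads). The longer one was given to Plin4 because only then did the reads of the gene match the value in the authors' deposited table, to within 1.61% in every library. With Plin4-202 alone the log2 fold change was 1.33 ± 0.36 (SE; adjusted p 0.250 in edgeR). The share of Plin4-202 averaged 7.45% ± 2.36 (SD, n = 6) over the Knockout glands and 5.18% ± 2.27 (SD, n = 5) over the others, with ranges that overlapped, and was not tested.

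**Figure D2:**
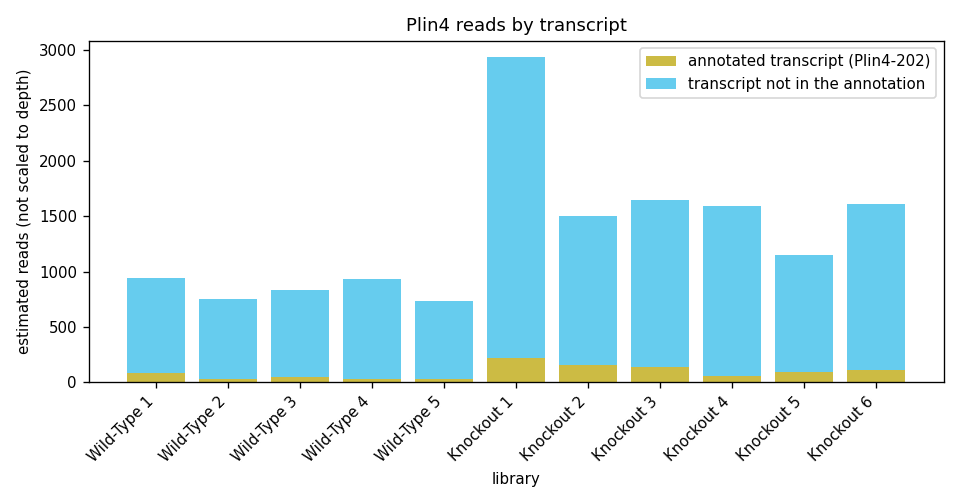
Estimated reads (vertical axis, not scaled to depth) assigned to the 2 Plin4 transcripts in each of the 11 libraries. The transcript that the annotation lacks makes up most of every bar, and the Knockout bars are taller than the Wild-Type bars.

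Cidec encodes a protein that joins droplets and moves lipid from small to large ones. The gene (ENSMUSG00000030278) lies on chromosome 6 from 113424634 to 113435760, on the minus strand. Its level was 29.6, 30.3, 20.5, 27.3 and 22.0 CPM in Wild-Type 1 to 5 and had a lowest, median and highest value of 28.1, 34.1 and 45.3 CPM in Knockout. Of the Knockout libraries 5 of 6 were above the highest Wild-Type library, and Knockout 2 was the one inside the Wild-Type range. Knockout over Wild-Type, the log2 fold change was 0.46 ± 0.14 (SE; 95% interval 0.15 to 0.76) with a p of 0.0061 and an edgeR adjusted p of 0.276. Leaving out 1 library at a time moved it between 0.38, without Knockout 1, and 0.52. All reads of Cidec were on 1 transcript.

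Plin1 encodes perilipin 1, the most abundant coat protein of the adipocyte droplet. The gene (ENSMUSG00000030546) lies on chromosome 7 from 79720218 to 79732903, on the minus strand. Its level was 23.8, 23.7, 20.4, 25.5 and 22.1 CPM in Wild-Type libraries, within a narrow range, and 34.4, 36.4, 27.2, 23.5, 16.2 and 23.6 CPM in Knockout 1 to 6. Knockout 1 to 3 were thus above all Wild-Type libraries, Knockout 5 below all of them, and Knockout 4 and 6 among them. In edgeR the log2 fold change was 0.22 ± 0.17 (SE; 95% interval -0.16 to 0.60) with an adjusted p of 0.632. It was 0.14 without Knockout 1, 0.12 without Knockout 2 and 0.34 without Knockout 5. The spread between Knockout libraries was 28.1% of their mean, against 8.25% in Wild-Type. The effective length by which salmon divided the Plin1 reads was lowest in Knockout 4 and 5 (807 and 753 bases, against 963 to 1157 in the other 9).

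Among the lipases, Pnpla2 (ENSMUSG00000025509), on chromosome 7 from 141455198 to 141460743 of the plus strand, was the gene with a fold change below 0. Its level was 434, 286, 329, 374 and 227 CPM in Wild-Type 1 to 5 and 201, 270, 238, 354, 334 and 272 CPM in Knockout 1 to 6. Both groups spanned most of the same range, although no Knockout library passed the highest Wild-Type library. The log2 fold change was -0.25 ± 0.18 (SE; 95% interval -0.63 to 0.14) with an edgeR adjusted p of 0.591. With 1 library left out it ranged from -0.35 without Wild-Type 5 to -0.13 without Wild-Type 1 (-0.16 without Knockout 1), and it was -0.07 with the libraries scaled to their total counts. The level of Pnpla2 was lowest in Knockout 1, the library in which Plin4, Cidec and Adrb3 were highest.

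Lipe (ENSMUSG00000003123) lies on chromosome 7 from 25379527 to 25398710, on the minus strand. Its level was 92.1, 76.7, 96.2, 139 and 77.0 CPM in Wild-Type libraries and 103, 180, 100, 97.8, 73.5 and 99.0 CPM in Knockout libraries. Knockout 2 and Wild-Type 4 stood above the rest, and the groups overlapped. Knockout over Wild-Type, the log2 fold change was 0.18 ± 0.22 (SE; 95% interval -0.31 to 0.66) with an edgeR adjusted p of 0.779, and it ranged from -0.02 without Knockout 2 to 0.35 without Wild-Type 4. Its second coding transcript, Lipe-202, was given reads in 4 libraries only, with 758 in Knockout 1, 607 in Wild-Type 3, 76.2 in Wild-Type 4 and 40.4 in Knockout 4, which follows no group. The whole gene is overlapped on the opposite strand by the antisense gene 4732471J01Rik; the library kit keeps strand, and whether the quantification used it is not given in the sources used here.

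Mgll (ENSMUSG00000033174) lies on chromosome 6 from 88724412 to 88828360, on the plus strand. Its level was 16.2, 15.2, 17.8, 27.0 and 19.3 CPM in Wild-Type libraries and had a lowest, median and highest value of 19.2, 22.3 and 27.9 CPM in Knockout libraries. Wild-Type 4 was inside the Knockout range, and 3 of the other 4 Wild-Type libraries were below every Knockout library. In edgeR the log2 fold change was 0.29 ± 0.15 (SE; 95% interval -0.04 to 0.62) with an adjusted p of 0.464. With 1 library left out it ranged from 0.22 without Wild-Type 2 to 0.45 without Wild-Type 4. The leading transcript, Mgll-207, held 86.9% ± 9.64 (SD, n = 5) of the reads in Wild-Type and 75.1% ± 7.87 (SD, n = 6) in Knockout libraries. The ranges, 74.0% to 94.7% and 64.0% to 86.6%, overlapped, and the lowest share, in Knockout 2, came with 28.9% of the reads on Mgll-204, a transcript with no reads in the other 10 libraries.

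Of the regulators of Pnpla2, Abhd5 (ENSMUSG00000032540; chromosome 9, 122351608 to 122381524, plus strand), which encodes the activator, was at 261, 295, 236, 302 and 255 CPM in Wild-Type libraries and had a lowest, median and highest value of 277, 326 and 376 CPM in Knockout libraries. Of the Knockout libraries 4 of 6 were above all Wild-Type libraries. The log2 fold change was 0.27 ± 0.10 (SE; 95% interval 0.06 to 0.49) with a p of 0.014 and an edgeR adjusted p of 0.312. Its relative spread was 11.4% of the mean in Knockout libraries, the lowest of the 10 there, and 10.3% in Wild-Type libraries, where that of Plin1 was lower.

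G0s2 (ENSMUSG00000009633; chromosome 1, 193272161 to 193273217, minus strand) encodes the protein that binds and inhibits adipose triglyceride lipase. It was the most variable of the 10, at 54.3, 274, 109, 125 and 206 CPM in Wild-Type libraries and 134, 102, 353, 208, 155 and 170 CPM in Knockout libraries. The highest library, Knockout 3, was 6.49-fold above the lowest, Wild-Type 1, and the groups overlapped over most of their range. Knockout over Wild-Type, the log2 fold change was 0.28 ± 0.42 (SE; 95% interval -0.64 to 1.20) with an edgeR adjusted p of 0.819, and it ranged from 0.00064 without Knockout 3 to 0.60 without Wild-Type 2. The interval is wide enough to hold both 0 and the value of Plin4, so that a difference of that size was not detectable at this spread. The gene lies wholly within Lamb3, on the opposite strand, and Mgll, Abhd5, Adrb3 and, by a few bases, Plin4 are also overlapped in part by genes on the opposite strand.

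At the start of the pathway, Adrb3 (ENSMUSG00000031489; chromosome 8, 27225776 to 27250616, minus strand), the beta-3 adrenergic receptor, was at 5.67, 9.05, 6.68, 7.03 and 6.97 CPM in Wild-Type libraries and 12.9, 7.73, 11.1, 10.5, 8.36 and 7.50 CPM in Knockout libraries. Knockout 1, 3 and 4 were above every Wild-Type library, and the other 3 were inside the Wild-Type range. In edgeR the log2 fold change was 0.46 ± 0.16 (SE; 95% interval 0.11 to 0.81) with a p of 0.014 and an adjusted p of 0.312. At its end, the glycerol channel gene Aqp7 (ENSMUSG00000028427; chromosome 4, 41033074 to 41048139, minus strand) had between 36 and 102 reads a library. Its level was 1.64, 1.67, 2.13, 3.00 and 1.26 CPM in Wild-Type libraries and 1.60, 3.47, 2.14, 2.19, 1.65 and 1.68 CPM in Knockout libraries. As for Lipe, Knockout 2 was the highest and Wild-Type 4 the next. The log2 fold change was 0.12 ± 0.26 (SE; 95% interval -0.43 to 0.67) with an edgeR adjusted p of 0.879, and it ranged from -0.07 without Knockout 2 to 0.34 without Wild-Type 4. Of the 31-base words of the Aqp7 transcripts, 5.85% also occur in other genes, against at most 1.53% for the other 9 genes.

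The 10 genes did not peak in the same libraries. Knockout 2 held the highest value of 4 genes (Plin1, Lipe, Abhd5 and Aqp7), Knockout 1 of 3 (Plin4, Cidec and Adrb3), Knockout 3 of 2 (Mgll and G0s2) and Wild-Type 1 of 1 (Pnpla2). Adipoq, the adiponectin gene, was also highest in Knockout 1, at 58.2 CPM. Knockout 1 also carried the most muscle marker RNA and, among Knockout libraries, the most lymphocyte and lymph node marker RNA (14.1 CPM over 6 markers, against 1.25 to 2.85 in the other 5); their part in these levels was not tested.

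**Figure D3:**
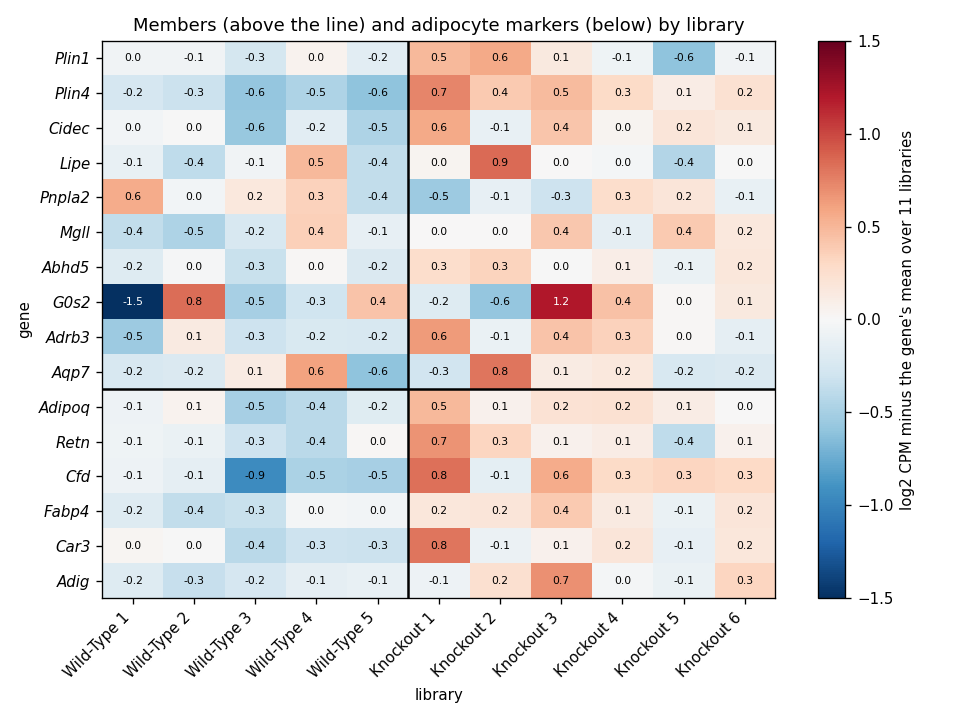
log2 CPM minus the mean of each gene over the 11 libraries (colour and printed value) for the 10 genes above the line and 6 of the 12 adipocyte markers below it, with Wild-Type libraries to the left. The markers drawn are Adipoq, Retn, Cfd, Fabp4, Car3 and Adig. Lep, which had the lowest fold change of the marker list (-0.81), is not drawn. Plin4 is below its mean in all 5 Wild-Type libraries and above it in all 6 Knockout libraries, whereas Lipe and Aqp7 are highest in Knockout 2 and next highest in Wild-Type 4.

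In TPM, the 10 genes differed widely in level. The median over 11 libraries was 920 TPM for G0s2, 137 for Abhd5, 85.7 for Pnpla2, 24.1 for Cidec, 14.7 for Lipe, 13.2 for Mgll, 7.68 for Plin1, 3.18 for Plin4, 3.03 for Adrb3 and 1.04 for Aqp7. The listed G0s2 transcript is short, and its reads were divided by an effective length of 64.0 to 69.5 bases, against 711 to 752 for Abhd5 and 1158 to 1194 for Pnpla2. In CPM, which is not divided by length, the means of G0s2 were below those of both, so that its place at the top rests on this length. For scale, Adipoq had a median of 47.1 TPM and the casein gene Csn1s1 one of 107122 TPM. Of the 9 pairs of neighbours in that order, G0s2 and Abhd5, and Pnpla2 and Cidec, had ranges that did not overlap. Plin1 was above Plin4, and Adrb3 above Aqp7, in all 11 libraries although their ranges overlapped. Plin4 was above Adrb3 in 4 of 11 libraries, so that these 2 are not ordered. By level, the coat genes Plin1 and Plin4 were far below Plin2 (434 TPM), the coat protein of droplets in most cell types, and Cidec far below Cidea (2044 TPM), both of which are known to be abundant in milk-secreting cells. TPM is scaled to the whole library, and on it the ratio of Knockout to Wild-Type means for Plin4 was 1.09 on the log2 scale, against 0.82 after TMM scaling.

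All 10 genes are expressed in adipocytes, and so were set against adipocyte markers. The samples were whole glands, so reads of these genes from other cell types would be counted too. The median level of Abhd5 (137 TPM), Pnpla2 (85.7 TPM) and G0s2 (920 TPM) was above that of Adipoq (47.1 TPM). The part of other cell types in the ratios and scaled values below was not tested. Of the 11 adipocyte markers tested, 9 had a fold change above 0 and none passed the edgeR test (6 had an unadjusted p under 0.05, all higher in Knockout; DESeq2 called 3 higher). Adipoq was at 36.0 ± 5.66 CPM (SD, n = 5) without Cre and 47.7 ± 5.81 CPM (SD, n = 6) with it, for a log2 ratio of 0.40 ± 0.11 (SE; adjusted p 0.264 in edgeR). Cfd, which encodes the adipocyte protease adipsin, was the most abundant of the markers and had a log2 fold change of 0.78 ± 0.18 (SE; adjusted p 0.214 in edgeR), and the leptin gene Lep had one of -0.81 ± 0.50 (SE; adjusted p 0.525 in edgeR). The median over the list was 0.35. Of the 5 tested markers of thermogenic adipocytes (8 listed), 4 had a fold change below 0 and 1 above it, with a median of -0.13, and none passed the edgeR test, although 1 higher and 1 lower had an unadjusted p under 0.05. All 8 together, most of it Cidea, which milk-secreting cells also express, reached 1805 to 2664 CPM in Wild-Type and 1436 to 2055 CPM in Knockout libraries. The ratio of Plin4 to Adipoq in CPM lay between 0.701 and 0.903 in Wild-Type libraries and between 0.938 and 1.17 in Knockout libraries, without overlap. The share of all genes whose ratio to Adipoq did not overlap was not computed, so how unusual this is cannot be said. The ratio of Pnpla2 to Adipoq lay between 6.21 and 11.9 in Wild-Type and between 3.46 and 7.43 in Knockout libraries, which overlapped. The ratios of the other 8 genes to Adipoq overlapped between the groups, with medians for Cidec of 0.701 in Wild-Type and 0.773 in Knockout libraries and for Plin1 of 0.604 and 0.564.

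When the libraries were scaled to the summed adipocyte marker reads instead of TMM factors, the median log2 fold change of all genes moved to -0.60 and edgeR called 66.5% of them, 0.165% as higher. On that scale Plin4 was the 1 gene of the 10 with a fold change above 0 (3.5% of all genes had one), at 0.22 ± 0.17 (SE; adjusted p 0.241 in edgeR). Pnpla2 fell, by 0.81 ± 0.22 (SE) on the log2 scale, with an edgeR adjusted p of 0.0057. The other 8 changed sign, to values between -0.45 for Aqp7 and -0.15 for Cidec, none of which passed the test. With the markers weighted equally, so that Cfd did not dominate, the median of all genes was -0.18, Plin4 was at 0.63 ± 0.15 (SE; adjusted p 0.0793 in edgeR), Pnpla2 at -0.39, Lipe at -0.03 and Aqp7 at -0.08. A change of scaling moves all genes by similar though not equal amounts. The changes of sign thus follow from the scale chosen, and the order of the 10 is largely kept by construction.

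**Figure D4:**
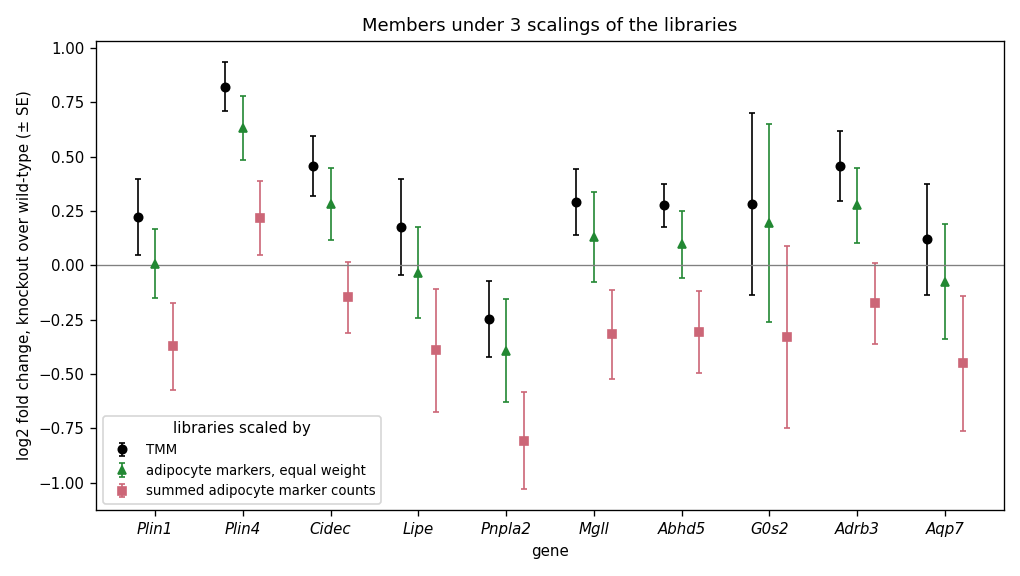
log2 fold change of Knockout over Wild-Type (vertical axis, ± SE, edgeR) of the 10 genes when the libraries are scaled by TMM, by adipocyte markers weighted equally and by summed adipocyte marker reads. Each change of scaling shifts all 10 genes down, as it does the median of all genes (-0.0075, -0.18 and -0.60), so that 8 of the 10 that lie above 0 with TMM lie below it with summed marker reads. The shift from TMM is about the same for all 10 with summed marker reads. It differs more with equal weights, from 0.28 to 0.19 for G0s2 and from 0.22 to 0.0067 for Plin1.

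The other genes of the pathway were taken from 4 lists. Of the 10 tested genes for droplet coat and assembly (12 listed; Fitm1 and Hsd17b13 were too low to test), 6 had a fold change above 0 and 4 below it, with a median of 0.03 and none past the edgeR test, although 4 higher and 2 lower had an unadjusted p under 0.05. Over all genes, 12.4% had such a p in either direction. Fitm2, which encodes a protein of the endoplasmic reticulum that helps droplets form, was at 2.88 to 3.53 CPM in Wild-Type and 3.86 to 4.88 CPM in Knockout libraries, without overlap, with a log2 fold change of 0.46 ± 0.11 (SE), an edgeR adjusted p of 0.214 and a DESeq2 adjusted p of 0.0399. Cidea, a relative of Cidec, was at 2380 ± 337 CPM (SD, n = 5) without Cre and 1800 ± 240 CPM (SD, n = 6) with it, for a log2 ratio of -0.40 ± 0.12 (SE; adjusted p 0.276 in edgeR). It thus had the opposite sign to Cidec, whose value was 0.46. Cavin1, which encodes a caveola coat protein, had a log2 fold change of 0.27 ± 0.10 (SE; adjusted p 0.312 in edgeR). The perilipins besides Plin1 and Plin4 had log2 fold changes of 0.06 (Plin2), -0.23 (Plin3) and 0.0031 (Plin5), with edgeR adjusted p-values of 0.590 and above.

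Of 20 genes for receptors and signalling in lipolysis, 15 had a fold change above 0 and 5 below it, with a median of 0.10, and none passed the edgeR test (1, Ptger3, had an unadjusted p under 0.05; DESeq2 called 1 higher). Ptger3 encodes the prostaglandin receptor EP3, which lowers cyclic AMP and restrains lipolysis in adipocytes. It was at 0.94, 1.29, 0.97, 0.73 and 1.05 CPM in Wild-Type libraries and 3.72, 1.74, 2.84, 2.40, 1.43 and 1.99 CPM in Knockout libraries, and the groups did not overlap. Knockout over Wild-Type, the log2 fold change was 1.25 ± 0.25 (SE; adjusted p 0.124 in edgeR), and DESeq2 gave an adjusted p of 0.0027. Gnas, which encodes the G protein that couples the receptor encoded by Adrb3 to adenylyl cyclase, had a log2 fold change of -0.15 ± 0.08 (SE; adjusted p 0.469 in edgeR), and Prkacb, which encodes a catalytic subunit of protein kinase A, one of 0.17 ± 0.10 (SE; adjusted p 0.491 in edgeR).

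Of 6 other lipase genes, 3 had a fold change above 0 and 3 below it, with a median of 0.03 and none past the edgeR test (1, Pnpla3, had an unadjusted p under 0.05; DESeq2 called none). Pnpla3, which encodes adiponutrin, a relative of Pnpla2, was at 36.3 ± 17.5 CPM (SD, n = 5) without Cre and 60.3 ± 18.1 CPM (SD, n = 6) with it, for a log2 ratio of 0.73 ± 0.32 (SE; adjusted p 0.387 in edgeR). The values were 0.26 ± 0.19 (SE) for Ces1d and -0.19 ± 0.16 (SE) for the lipoprotein lipase gene Lpl, at edgeR adjusted p-values of 0.605 and 0.663. Of 8 genes of glycerol and fatty acid handling, 4 lay above 0 and 4 below it, with a median of -0.04 and none past the edgeR test (1, Fabp4, had an unadjusted p under 0.05). Fabp4, the adipocyte fatty acid binding protein gene, had a log2 fold change of 0.35 ± 0.10 (SE; adjusted p 0.256 in edgeR; DESeq2 adjusted p 0.0381). The glycerol kinase gene Gk was at -0.19 ± 0.10 (SE; adjusted p 0.479 in edgeR) and Aqp3, another glycerol channel gene, at -0.90 ± 0.49 (SE; adjusted p 0.485 in edgeR).

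**Figure D5:**
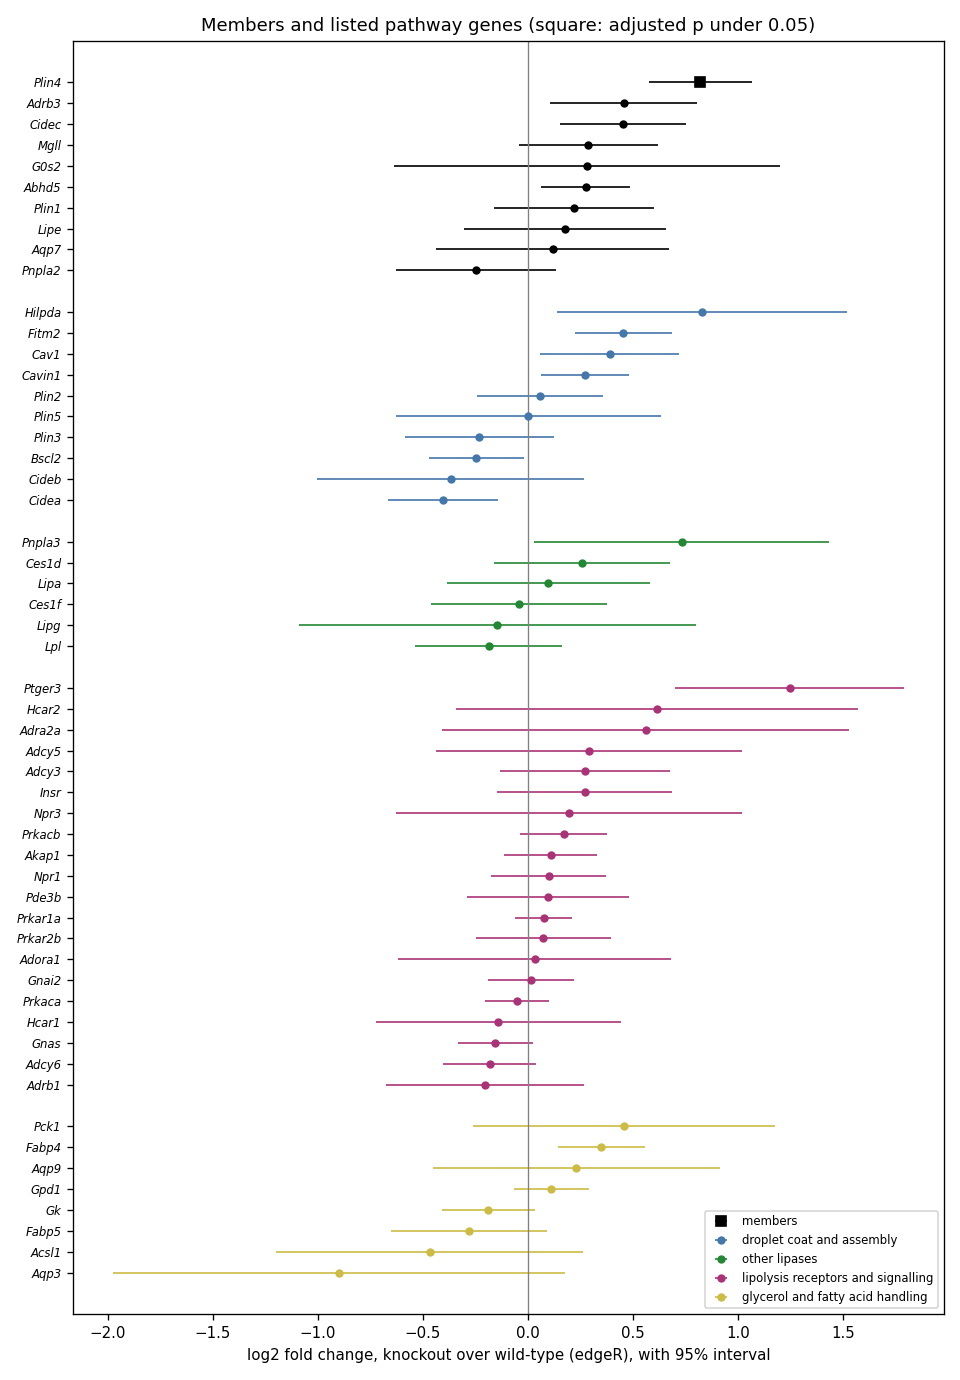
log2 fold change of Knockout over Wild-Type (horizontal axis, edgeR, bars 95% intervals) of the 10 genes (black) and of the tested genes of the 4 pathway lists (colours). Plin4, drawn as a square, is the 1 gene with an adjusted p under 0.05, and Ptger3 has the largest value, 1.25, of those drawn.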

How the data were processed

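Each library had a deposited table of transcripts with length, effective length, TPM and estimated counts, per the file headers. The submitters' processing notes name Salmon 1.3.0, DESeq2 1.28.1 and GRCm38.p6. Listed lengths were within 3 bases of the coding length for 93.9% of transcripts, so the values rest mostly on coding sequence. A gene table that the authors deposited holds values on a normalized scale and is used here as a signal.

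Estimated counts were summed per gene with GENCODE M21 (57452 of 58204 transcripts) and rounded. Of the 752 transcripts that it lacks, 36 (at least 50 reads on average) were given to the 1 gene whose value in the authors' table they completed to within 5% in all 11 libraries. The other 716, with at most 0.0793% of the reads of a library, were left out. This step was chosen after Plin4 was found far lower without it than in the authors' table. Genes passing filterByExpr (12756) were tested with edgeR 4.0.16 (TMM, quasi-likelihood, genotype as the only term, Benjamini-Hochberg over all genes, threshold 0.05), under R 4.3.3. DESeq2 1.42.0, limma 3.58.1 on the log2 of the authors' values (pseudocount 1), length corrections, other scalings, a replicate block and leaving out each library were alternatives. The edgeR step was tested on counts simulated from the means, dispersions and depths of these data, and the outcome is not given here. No 2 libraries of a group were alike within sampling noise (lowest chi-square per degree of freedom 21.9 over 25 pairs). Levels and transcript shares were not tested. At 25799553 to 37873464 reads a library, the 10 genes had between 36 (Aqp7) and 16131 (Abhd5) reads, so that counting error weighs most on Aqp7.

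All 10 genes, every pathway gene past the threshold and the 3 with the smallest p in each list are named. The members and lists were chosen with earlier results of these data known. A gene of the list of receptors and signalling is not reported here.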

Additional observations from a re-analysis of the deposited data

Results flagged for a closer look

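In 4 of 30 sets of values looked at within groups of 5 or 6, 1 library lay far from the others by Dixon's criterion, where chance gives about 1.5 (1 in 20). Lipe, the hormone-sensitive lipase gene, was at 180 CPM in Knockout 2, against 73.5 to 103 CPM in the other 5 Knockout libraries. Aqp7, the glycerol channel gene, was at 3.47 CPM in the same library, against 1.60 to 2.19 CPM in the other 5. The summed skeletal muscle markers were at 2511 CPM in Knockout 1, against 2.49 to 218 CPM, and the summed lymphocyte and lymph node markers at 14.1 CPM in Knockout 1, against 1.25 to 2.85 CPM. Plin4 was called without either library, with edgeR adjusted p-values of 0.0253 without Knockout 1 and 0.0210 without Knockout 2.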

How the results depend on the processing

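The 11 alternatives that kept all libraries gave 110 fold changes for the 10 genes, of which 95 kept their direction and side of the threshold. Plin4 stayed above 0 in all of them and in the 11 fits with 1 library left out (0.75 to 0.88). Its call was lost, at edgeR adjusted p-values of 0.241, 0.0793, 0.192 and 0.250, with summed adipocyte marker scaling (log2 fold change 0.22), markers weighted equally (0.63), the replicate block (0.84) and annotated transcripts alone (1.33, which drops most reads of the gene). Summed marker scaling gave -0.37 for Plin1, -0.15 for Cidec, -0.39 for Lipe, -0.32 for Mgll, -0.31 for Abhd5, -0.33 for G0s2, -0.18 for Adrb3 and -0.45 for Aqp7, and equal weights -0.034 for Lipe and -0.076 for Aqp7. With 1 library left out, Lipe ranged from -0.019 to 0.35 and Aqp7 from -0.069 to 0.34, both lowest without Knockout 2; Aqp7 was also below 0 without Wild-Type 5 (-0.0022). The count of the 10 genes called was 1 (Plin4). It was also 1 with summed marker scaling, but there the gene was Pnpla2, lower in Knockout (-0.81, edgeR adjusted p 0.0057). It was 0 with the replicate block, annotated transcripts alone and equal weights, and 0 to 1 with 1 library left out.

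Over all genes, edgeR called 8 (7 higher, 1 lower), DESeq2 146 (88 higher, 58 lower), DESeq2 with length factors 138 (86 higher, 52 lower), summed marker scaling 8487 (21 higher, 8466 lower) and the replicate block 0 (1030 at an unadjusted p under 0.05). With 1 library left out edgeR called 0, without Knockout 3 (1481 unadjusted), to 30, without Knockout 2. Total count scaling moved the median of all genes to 0.18, and with it Plin1 to 0.43, Lipe to 0.36, Mgll to 0.45, Abhd5 to 0.47, G0s2 to 0.43, Aqp7 to 0.29 and Pnpla2 to -0.07. Same-numbered libraries deviated together in 1 of 5 pairs (correlations -0.22 to 0.19), and 1 of 10 libraries correlated best with its own number, so the numbers were not taken as pairs. The cause of these differences was not tested.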
